A study of Mus musculus with 6 samples.

Results

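The genes described here encode digestive enzymes of the exocrine pancreas: Cela1, Ctrb1, Ctrc, Cpa1, Cpb1, Prss2, Pnlip, Pnliprp1, Clps and 2210010C04Rik. They are 10 of the 52542 genes counted in wells of mouse islets of Langerhans, and all 10 were found in the count tables. They were chosen with their distribution over wells and plates already known, so that distribution is given as a description, without a test. Islet cells were sorted into 384-well plates and profiled by MARS-seq, in which each captured RNA molecule gets a tag (a unique molecular identifier, UMI) near its 3′ end.

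The groups were 3 plates of male mice taken 4 weeks after surgical removal of pancreatic tissue (partial pancreatectomy, ppx) and 3 plates of sham-operated male mice. All mice carried Sox9-CreER and a tdTomato reporter, received tamoxifen (8 mg) from 10 weeks of age over 2 weeks and were operated on at 12 weeks. Ppx replicate 1 and sham replicate 1 were tomato-positive, ppx replicates 2 and 3 and sham replicate 3 were tomato-negative, and sham replicate 2 was a mix of both sorts. Sox9 marks duct and progenitor cells, so the reporter labels cells that had Sox9-driven Cre activity at the time of tamoxifen. The labels do not map plates to the 6 pancreata, so p-values measure at best the spread between plates, which may not be that between mice.

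The ppx plates held 1262152, 1472441 and 1508513 UMIs and the sham plates 1250861, 1458576 and 1378257. Filters on depth and mitochondrial share kept 2115 of 2304 wells, with median depths of 1954.5 to 3890.5 UMIs on ppx and 2119 to 3929 UMIs on sham plates. No well name was shared between plates. Wells were grouped by their hormones into those high in insulin alone (1000), somatostatin alone (540), glucagon alone (153), insulin and somatostatin together (175) and other combinations. The delta cell factor Hhex averaged 357 CPM (a gene's UMIs scaled to a fixed total, the same for every sum of wells) in somatostatin-only wells, against 11.0 CPM in insulin-only and 3.72 CPM in glucagon-only wells. Wells high in 2 hormones are called joined. Whether they held several cells was not tested.

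Acinar cells surround the islets and make most of the protein of the pancreas, including zymogens that are activated in the gut. Their enzyme genes are switched on together by PTF1, a complex that binds an E-box next to a second short box. Cela1 encodes elastase 1, Ctrb1 and Ctrc chymotrypsinogens, Cpa1 and Cpb1 carboxypeptidase precursors and Prss2 a trypsinogen. 2210010C04Rik is given no role here. Pnlip encodes pancreatic lipase, Pnliprp1 a lipase-related protein and Clps colipase, the cofactor of the lipase.

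Promoters are shown for Cela1 and Ctrb1, because the results turn on how Cela1 differs from the other enzyme genes, of which Ctrb1 was the most abundant. The letters are the 250 bases before the RefSeq start on GRCm38.p6, on the gene's own strand, and capitals mark an E-box (CANNTG, where N is any base), the 3 bases after it and the box TTTTCCC, the layout that PTF1 binds.
Cela1 (chr15:100687921-100688170, minus strand): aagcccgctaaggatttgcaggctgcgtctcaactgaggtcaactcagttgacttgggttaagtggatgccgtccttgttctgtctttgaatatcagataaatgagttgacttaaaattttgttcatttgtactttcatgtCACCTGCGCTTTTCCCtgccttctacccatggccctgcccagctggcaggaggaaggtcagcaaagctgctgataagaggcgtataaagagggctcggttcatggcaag
Ctrb1 (chr8:111691011-111691260, minus strand): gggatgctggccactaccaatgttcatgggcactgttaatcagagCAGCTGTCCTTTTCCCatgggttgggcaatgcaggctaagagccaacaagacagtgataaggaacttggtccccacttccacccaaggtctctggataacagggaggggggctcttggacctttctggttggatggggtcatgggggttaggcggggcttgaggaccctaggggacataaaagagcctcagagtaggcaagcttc

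This motif begins at position -109 from the start in Cela1 and at -205 in Ctrb1. It was chosen after these letters had been read. Searched on both strands, it was found in 2 of the 8 members with a promoter entry and in 11 of 32851 promoter windows (0.0335%). Its parts are common: CACCTG stood in 4 of the 8 members' windows and in 17.2% of all, and TTTCCC in 4 of the 8 and in 21.9%. CACCTG overlaps the whole motif in Cela1, and TTTCCC overlaps it in both genes. A match is a run of letters and does not show that a factor binds there.

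By GENCODE on the GRCm38 assembly, Cela1 lies at chr15:100674421-100687921 and Ctrb1 at chr8:111686519-111691010. Prss2 (chr6:41521787-41525079) and 2210010C04Rik (chr6:41030268-41035509) lie near each other, as do Pnlip (chr19:58652498-58681788) and Pnliprp1 (chr19:58728887-58744169). Ctrc (chr4:141814962-141846359), Cpa1 (chr6:30639218-30645363) and Cpb1 (chr3:20248264-20275733) lie elsewhere. Reads can be split between near copies. Over the last 300 bases of the longest coding transcripts, Prss2 was 81% identical to Try4 and 80% to Try5, but 46.3% identical to 2210010C04Rik. Cela1 was 49% identical to Cela2a and 45.7% to Cela3b, the other elastase genes compared. Clps (chr17:28558149-28560766) contains the microRNA gene Mir6969 (chr17:28558441-28558501) on the same strand, so the Clps values below are uncertain.

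Most enzyme transcripts came from a single well. In all wells together the 10 genes had 5278 UMIs, and 4743 of them (89.9%) were in 1 well of ppx replicate 3. Without Cela1, the other 9 genes had 4328 of 4458 UMIs (97.1%) there. Cela1 was split, with 415 UMIs in that well and 405 elsewhere. The share in the rich well was 90% for Clps and 96.4% to 98.2% for the other 8 genes, against 50.6% for Cela1.

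That well held 8139 UMIs, 2.09 times the median of its plate, and 12 kept wells of the plate held more. The 10 genes took 58.3% of its UMIs (exact Clopper-Pearson 95% interval 57.2 to 59.3, counting error only). Ctrb1 led with 911 UMIs, followed by Ctrc with 617, Pnliprp1 with 533, 2210010C04Rik with 527, Prss2 with 453, Cpb1 with 452, Pnlip with 439, Cela1 with 415 and Cpa1 with 378. These 9 genes were the 9 most abundant in the well, and Clps had 18 UMIs. Mir6969, which lies within Clps, had 137 UMIs in the same well and 149 in all wells.

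**Figure D1:**
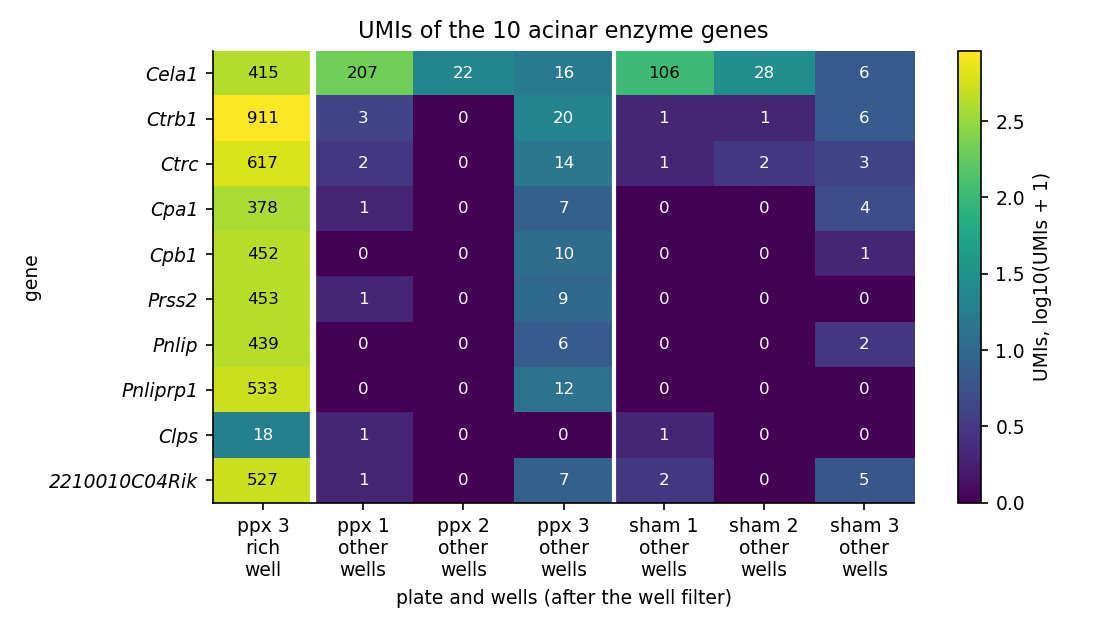
UMIs of each gene (rows, number printed and coloured on a log10 scale) in the rich well of ppx replicate 3 and in all other kept wells of each plate (columns). The rich well holds 378 to 911 UMIs of every gene but Clps (18), while outside it Cela1 reaches 207 UMIs on ppx replicate 1 and 106 on sham replicate 1 and the other genes reach at most 20 on any plate.

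Other acinar genes followed in the same well. Of 44 further acinar genes listed, 43 were in the tables, 33 had a UMI in the well and 30 had at least 0.5 of all their UMIs there. Cel, the bile salt-activated lipase, had 327 of its 338 UMIs there. The trypsinogens Try5 and Try4 had 288 of 297 and 248 of 257, the chymotrypsin-like Ctrl 236 of 251 and the elastase Cela3b 209 of 218. The listed genes together added 27.6% of the well's UMIs, so that 85.9% came from them and the members. Few UMIs were counted for the amylase genes, with 7 of Amy1, 5 of Amy2b and 2 of Amy2a2. Their 3′ ends were not compared, so whether reads were split between amylase copies was not tested. The PTF1 subunit genes Rbpjl and Ptf1a had 2 and 0 UMIs, and Bhlha15, an acinar transcription factor, had 0.

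The well carried little of other cell types. Of the beta markers 3 of 13 had UMIs (0.283% of the well), with 11 of Ins1 and 0 of Ins2, and of the delta markers 0 of 12, Sst and Hhex included. Alpha markers had 6 UMIs and duct markers 49, of which Tff2 (36) stands in the acinar list too and the others were Clu (12) and Krt18 (1). None of the markers listed for epsilon, immune, blood, vessel, stromal or Schwann cells had a UMI. The mitochondrial share was 0.946%, the lowest of the kept wells of the plate, whose median was 10.8%. The well had UMIs of 531 genes, against a plate median of 1554.5 genes per well. Clustering placed it with the beta-like wells, although its hormones and leading genes do not match that class.

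No well lay near the 5% threshold. The next share below the rich well was 3.23%, which is 1 UMI in a discarded well of 31 UMIs on the same plate. Among kept wells the next was 0.511%, a somatostatin-only well of sham replicate 1 with 4 UMIs of Cela1 among 783. Among kept wells 1 lay over 2%, and the same number over 5% and over 10%.

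Outside the rich well the 9 enzymes other than Cela1 were rare. On the other wells of ppx replicate 3 they had 90 UMIs, 2.08% of the number in the rich well. These lay in 70 of 383 wells (18.3%), 59 of them with 1 UMI and the highest with 7, and 63 of the 70 were insulin-only. Among kept wells 60 of the 65 with such a UMI were insulin-only (92.3%), on a plate where 83.7% of the kept wells were. On the other 5 plates together the 9 genes had 40 UMIs in 21 of 1920 wells.

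By plate, the 9 genes stood at 7.31, 0 and 60.5 CPM in the kept wells of ppx replicates 1, 2 and 3 without the rich well, and at 4.09, 2.09 and 15.5 CPM on sham replicates 1, 2 and 3. Ppx replicate 3, the plate with the rich well, was higher than the other plates, with an exact Poisson 95% interval of 48.4 to 74.9 CPM that covers counting error only. Ppx replicate 2 had 0 UMIs of these genes, which allows a level of up to 2.08 CPM (3 counts). Of the 21 UMIs on sham replicate 3, 12 came from 1 insulin-only well and 7 from another, so that plate's level rests on these wells.

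The 90 UMIs on ppx replicate 3 had a make-up close to that of the rich well. At the rich well's proportions, 90 UMIs would hold 18.9 of Ctrb1, 12.8 of Ctrc, 11.1 of Pnliprp1, 11.0 of 2210010C04Rik, 9.42 of Prss2 and 9.13 of Pnlip. The other wells had 20 of Ctrb1, 15 of Ctrc, 12 of Pnliprp1, 8 of 2210010C04Rik, 10 of Prss2 and 6 of Pnlip. On the other plates the 40 UMIs held 11 of Ctrb1, 8 of Ctrc, 5 of Cpa1 and 9 of 2210010C04Rik. The rich well's proportions give 8.42, 5.70, 3.49 and 4.87. They held 0 of Pnliprp1, 1 of Cpb1, 2 of Prss2, 2 of Pnlip and 2 of Clps, where the proportions give 4.93, 4.18, 4.19, 4.06 and 0.166. Insulin-only wells of sham replicate 3 with 12 and 7 UMIs held 2 and 3 of the 9 UMIs of 2210010C04Rik. Whether RNA or barcodes passed between wells was not tested.

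**Figure D2:**
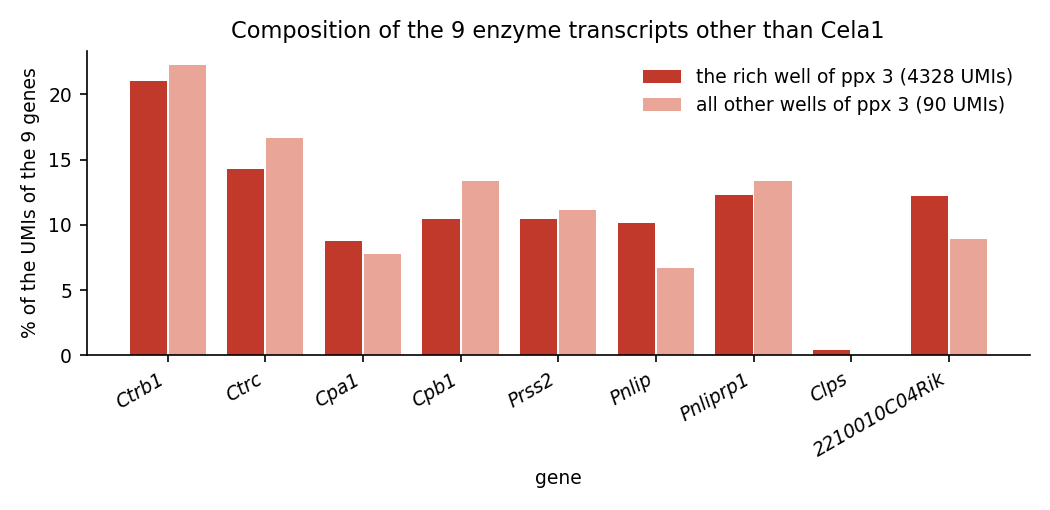
Share of each gene (bars, in percent) among the UMIs of the 9 genes other than Cela1, in the rich well of ppx replicate 3 (dark red, 4328 UMIs) and in all other wells of that plate (light red, 90 UMIs). Ctrb1 takes 21.0% of the UMIs in the rich well and 22.2% elsewhere on the plate, and Clps takes 0.416% and 0.

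Cela1 followed a different pattern: outside the rich well it was found mainly in wells high in somatostatin, alone or with another hormone. Of its 385 UMIs in kept wells other than the rich well, 359 lay there, but 313 of the 385 came from the tomato-positive plates, on which such wells held 80.9% of all UMIs. Shares are therefore given within plates. Wells high in somatostatin held 199 of 207, 19 of 22 and 6 of 16 Cela1 UMIs on ppx replicates 1, 2 and 3, and 102 of 106, 28 of 28 and 5 of 6 on sham replicates 1, 2 and 3. Only on ppx replicate 3, the plate of the rich well, did most Cela1 UMIs lie in other wells. Wells high in somatostatin held 81.7%, 4.54% and 4.90% of all UMIs on these ppx plates and 80.1%, 24.5% and 6.88% on the sham plates. The share of Cela1 was above the share of all UMIs on each of the 6 plates, by the widest margin on ppx replicate 2 and by the narrowest on ppx replicate 1. Of the UMIs of the other 9 genes, wells high in somatostatin held 6 of 9 and 4 of 85 on ppx replicates 1 and 3, and 4 of 5, 3 of 3 and 0 of 21 on the sham plates. Of these 123 UMIs 85 were on ppx replicate 3, so the pooled shares of Cela1 and of the other genes would compare different plates.

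In somatostatin-only wells Cela1 stood at 342, 477 and 116 CPM on ppx replicates 1, 2 and 3 and at 189, 173 and 110 CPM on sham replicates 1, 2 and 3. In insulin-only wells it stood at 63.4, 2.46 and 7.29 CPM on the ppx plates and at 7.03, 0 and 1.04 CPM on the sham plates. In glucagon-only wells it was at 0 on every ppx plate and at 15.7, 0 and 0 CPM on the sham plates, where 15.7 CPM is 1 UMI. The 0 in insulin-only wells of sham replicate 2 allows up to 3.55 CPM (3 counts). Of the 7 UMIs in insulin-only wells of ppx replicate 1, 5 came from 1 well. The somatostatin-only level was the highest of these classes on 6 of 6 plates, and the lowest of its 6 values lay above the highest of the insulin-only values. Insulin-only and glucagon-only wells did not separate beyond their spread, at 13.5 ± 24.6 and 2.62 ± 6.43 CPM (SD, n = 6 plates).

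As a mean over plates, the log2 ratio of Cela1 in somatostatin-only over insulin-only wells was 5.18 ± 1.95 (SD, n = 6, with 1 CPM added), above 0 on 6 of 6 plates. For the sum of the other 9 genes the ratio was 0.15 ± 2.93, above 0 on 4 of 6 plates. Its ends were 4.75 on sham replicate 2 and -4.52 on sham replicate 3. On ppx replicate 2 it was 0, as neither class had a UMI of these genes. Taken singly, the 9 genes had mean ratios between -0.85 (Cpa1) and 0.66 (Prss2), and none was above 0 on more than 3 of the 6 plates. Their counts in somatostatin-only wells came to 13 UMIs in all. A gene with no UMI in either class on a plate has a ratio of 0 there, so means near 0 partly reflect absent counts. Somatostatin-only wells of the tomato-negative plates numbered 9 and 12 on ppx and 19 on sham plates, so the levels there rest on 4 to 8 UMIs of Cela1.

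**Figure D3:**
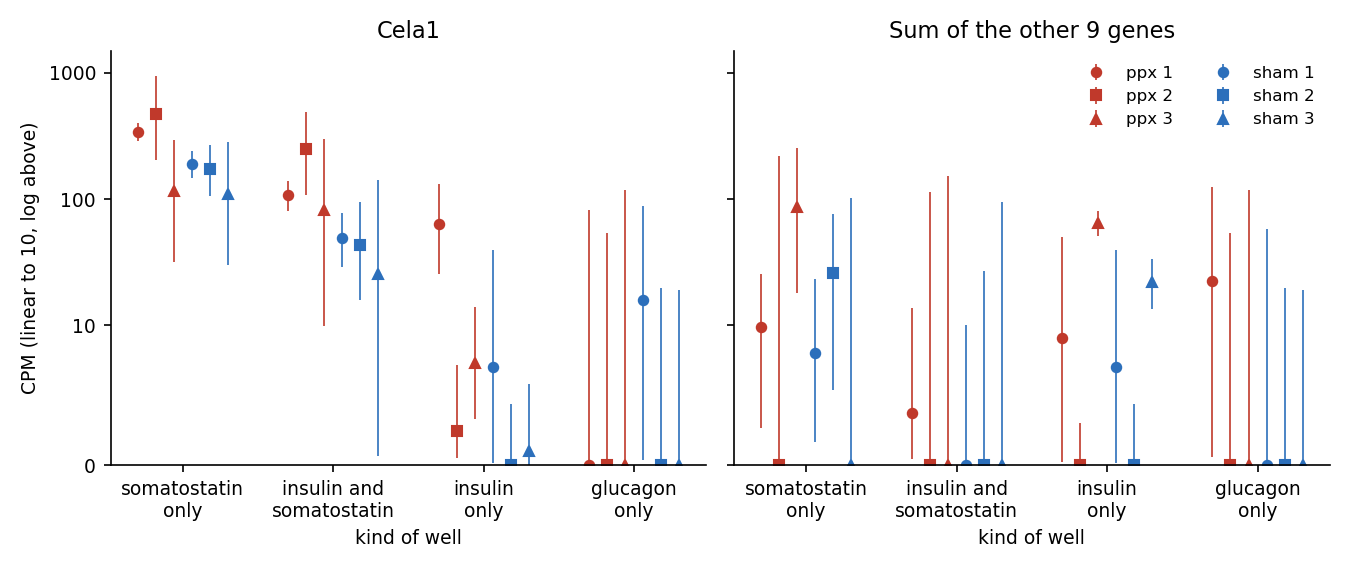
Level of Cela1 (left) and of the other 9 genes together (right) in CPM, on an axis that is linear up to 10 and logarithmic above, by kind of well, without the rich well. Each point is 1 plate with its exact Poisson 95% interval (ppx red, sham blue), and Cela1 lies between 110 and 477 CPM in somatostatin-only wells but at or under 63.4 CPM in insulin-only wells.

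Detection by well was compared at equal depth. Somatostatin-only wells were shallower, so each well was thinned to 1000 UMIs, which left out 58 somatostatin-only and 10 insulin-only wells. After thinning, Cela1 had a UMI in 26.9%, 33.3% and 16.7% of the somatostatin-only wells of ppx replicates 1, 2 and 3, and in 17.9%, 7.02% and 5.88% of those of sham replicates 1, 2 and 3. In insulin-only wells the shares were 5%, 0.69% and 1.05% on the ppx plates and 0 on each sham plate. The somatostatin-only share was the higher one on 6 of 6 plates, though on ppx replicates 2 and 3 it rests on 3 and 2 wells with a UMI and on sham replicates 2 and 3 on 4 and 1. Pooled over plates, 97 of 482 somatostatin-only wells (20.1%, exact Clopper-Pearson 95% interval 16.6 to 24.0) and 6 of 990 insulin-only wells (0.606%, 0.223 to 1.31) had one. The intervals cover counting error only, not the spread between plates, and ppx replicate 1 and sham replicate 1 gave 197 and 190 of the 482 wells. Glucagon-only wells had none in 151, which allows a share of up to 1.99%. The median depths before thinning were 1663.5, 4269 and 3457 UMIs. Unthinned, 26.9% of somatostatin-only and 1.7% of insulin-only wells had a UMI. A UMI of any of the other 9 genes was in 6 somatostatin-only and 14 insulin-only thinned wells, and 11 of these insulin-only wells were on ppx replicate 3. On that plate it was in 8.33% of 12 somatostatin-only wells (1 well) and 3.83% of 287 insulin-only wells.

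**Figure D4:**
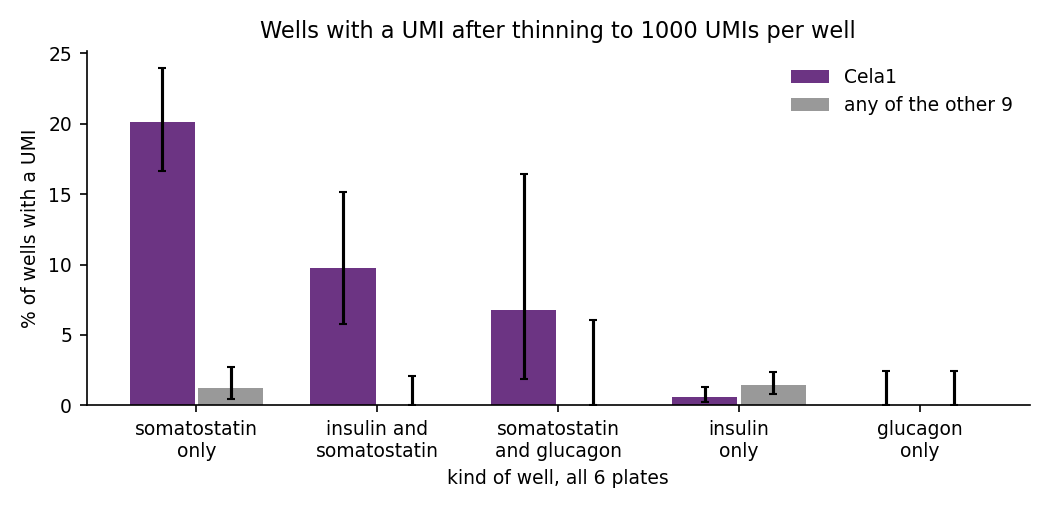
Share of wells with at least 1 UMI of Cela1 (purple) or of any of the other 9 genes (grey) after each well was thinned to 1000 UMIs, by kind of well over all 6 plates, with exact Clopper-Pearson 95% intervals that do not cover the spread between plates. Cela1 was found in 20.1% of somatostatin-only wells, 9.77% of joined insulin and somatostatin wells and 0.606% of insulin-only wells.

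Within the somatostatin-only class Cela1 was sparse. Of 540 wells 395 had 0 UMIs, 92 had 1, 27 had 2, and 26 had 3 to 6. Many of these wells also carried Ppy, the pancreatic polypeptide gene, and Cela1 did not differ beyond counting error between them. On ppx replicate 1 it stood at 346 CPM in 142 wells with over 2% Ppy (95% interval 279 to 423) and at 334 CPM in 82 wells with less (242 to 448). On sham replicate 1 the values were 200 CPM (147 to 267) and 171 CPM (111 to 253).

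Joined wells of insulin and somatostatin had intermediate levels of Cela1. In wells high in both insulin and somatostatin Cela1 stood at 107, 248 and 82.3 CPM on the ppx plates and at 48.9, 43.4 and 25.6 CPM on the sham plates, between the somatostatin-only and insulin-only levels of each plate. Set against Sst, these joined wells had 5.52, 3.82 and 1.69 Cela1 UMIs per 1000 Sst UMIs on the ppx plates and 2.35, 0.970 and 0.608 on the sham plates. Somatostatin-only wells had 4.68, 2.69 and 0.753 on the ppx and 2.50, 1.31 and 0.575 on the sham plates. The joined wells were higher than the somatostatin-only wells on every ppx plate and on sham replicate 3, and lower on sham replicates 1 and 2. The values of joined wells on ppx replicate 3 and sham replicate 3 rest on 2 and 1 UMIs. Both kinds of well share a plate's library.

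**Figure D5:**
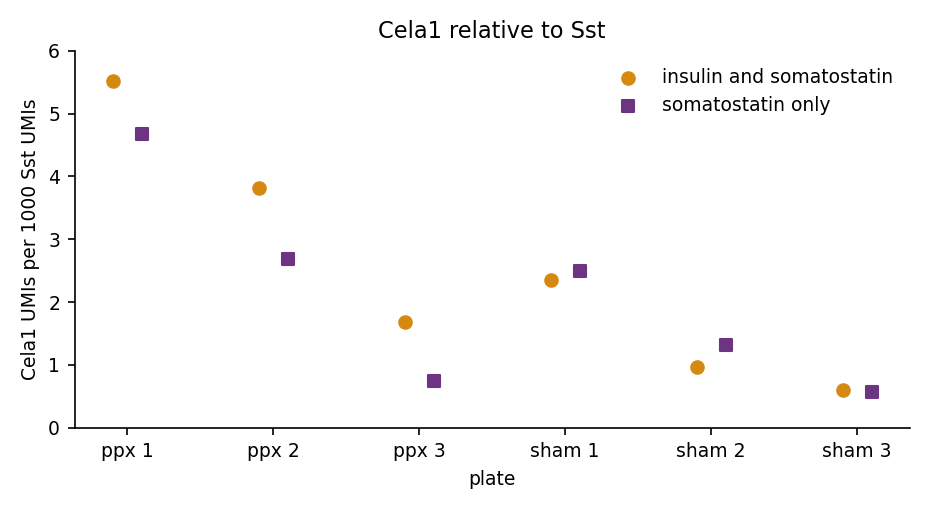
Cela1 UMIs per 1000 Sst UMIs (vertical axis) on each plate, in wells high in insulin and somatostatin (circles) and in somatostatin-only wells (squares). The ratio is highest on ppx replicate 1 (5.52 and 4.68) and lowest on sham replicate 3 (0.608 and 0.575) in both.

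In insulin-only wells the ratio to Sst was less even. It was 19.6, 9.93 and 31.4 Cela1 UMIs per 1000 Sst UMIs on the ppx plates, from 7, 3 and 9 UMIs of Cela1, and 2.58, 0 and 2.88 on the sham plates, from 1, 0 and 1. On ppx replicate 3 the insulin-only wells also held 80 UMIs of the other 9 genes, and at the rich well's proportion of Cela1 to those genes 80 UMIs would come with 7.67 of Cela1. In somatostatin-only wells of that plate the same proportion would give 0.288 UMIs, and 4 were counted. In insulin-only wells of ppx replicates 1 and 2 it would give 0.0959 and 0 UMIs, and 7 and 3 were counted. On sham replicates 1, 2 and 3 it would give 0.0959, 0 and 2.01 in these wells, and 1, 0 and 1 were counted. Whether RNA or barcodes passed between wells was not tested.

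Genes whose level ran most like that of Cela1 were sought over 18 sums, 1 for each plate of insulin-only, somatostatin-only and glucagon-only wells. Among 6100 genes with a mean of at least 20 CPM, Pearson's r of log2 CPM was highest for Cd24a (0.91), a surface glycoprotein gene also listed as a delta marker. Then came Chgb, a granin of secretory granules (0.90), Sst (0.90), the imprinted Nnat (0.90) and the calcium channel gene Cacna1h (0.89). Hhex stood at 0.87 and Ppy at 0.41. For the sum of the other 9 genes the highest was Tbc1d19 (0.67), followed by Csnk1e, Gm5870, Tmem238 and Vldlr (0.63 each), and Sst stood at 0.29. The other 9 genes had 0 UMIs on 2, 2 and 5 of the 6 plates in insulin-only, somatostatin-only and glucagon-only wells, which limits their r. The points share libraries and fall into classes that Sst helped define, so r describes these sums and is no test.

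Some of the further acinar genes were found mainly outside the rich well. Bhlha15, Gatm and Tmed6 had 0, 1 and 3 of their 511, 270 and 276 UMIs there. Summed over plates, Bhlha15 stood at 21.4 CPM in somatostatin-only and 89.5 CPM in insulin-only wells. Gatm stood at 37.6 CPM in somatostatin-only and 33.9 CPM in insulin-only wells, and Tmed6 at 47.8 and 34.6 CPM. Nr5a2, an acinar transcription factor, had 12 UMIs (12.2 CPM) in somatostatin-only and 4 (0.886 CPM) in insulin-only wells. These sums mix plates of different make-up and were not tested. Within ppx replicate 1, Nr5a2 stood at 17.3 CPM in somatostatin-only and 18.1 CPM in insulin-only wells (2 UMIs). Within sham replicate 1 it stood at 13.3 and 7.03 CPM (1 UMI in insulin-only wells). On the remaining plates somatostatin-only wells had 0 UMIs of it. The upper limits of counting error there ran from 31.8 CPM (sham replicate 2) to 220 CPM (ppx replicate 2), above the pooled 12.2 CPM. Those plates therefore cannot show whether the pooled gap holds within them. The gap was not seen on ppx replicate 1, and on sham replicate 1 it rests on 1 UMI in insulin-only wells.

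The operation was compared on sums of UMIs per plate. In somatostatin-only wells Cela1 averaged 311 ± 183 CPM on ppx plates and 157 ± 41.7 CPM on sham plates (SD, n = 3 each), and the plates overlapped, since ppx replicate 3 lay below sham replicates 1 and 2. The log2 fold change was 0.87 ± 0.27 (SE) and did not pass edgeR's quasi-likelihood test (adjusted p = 0.383, unadjusted p = 0.0033, 923 genes tested). Of those genes 1 was called, or 0.108%. DESeq2 gave 0.92 (adjusted p = 1). On the tomato-positive plates, 1 per operation, the values were 342 CPM (95% interval 287 to 404) after ppx and 189 CPM (148 to 238) after sham, and on the tomato-negative plates 477 and 116 CPM after ppx and 110 CPM after sham. The other 9 genes were below the count filter.

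In insulin-only wells no member passed the count filter, while 27 of 8181 genes (0.33%) were called. With every gene tested there, the smallest adjusted p among the members in edgeR was 0.246 (Pnliprp1). No member was called, while 67 of 18604 genes were. Of the listed acinar genes, Gatm (0.85 ± 0.29), Bhlha15 (0.42 ± 0.20) and Tmed6 (0.16 ± 0.29) were tested, and their edgeR adjusted p-values were 0.269, 0.517 and 0.925.

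Summed over all kept wells, Cela1 averaged 163 ± 145 CPM on ppx and 36.9 ± 43.8 CPM on sham plates (SD, n = 3 each), a log2 fold change of 2.22 ± 0.93 (SE, edgeR adjusted p = 0.769). Of 9920 genes 0 were called (0%), with 625 at an unadjusted p under 0.05 and 13 called by DESeq2. With the replicate number as a block, Cela1 passed (2.07 ± 0.48, edgeR adjusted p = 0.0246), where 185 of 9920 genes were called. Without the rich well Cela1 did not pass (0.90 ± 1.01, adjusted p = 0.893, and 0.76 ± 0.24, adjusted p = 0.127, with the block). These sums also move with the number of somatostatin-only wells, which was 224, 9 and 12 on the ppx plates and 212, 64 and 19 on the sham plates.

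The other 9 genes did not pass the count filter in these sums. With the filter dropped, edgeR called 182 of 21379 genes, among them 8 of the 9, as higher after ppx. The log2 fold change was 6.75 for Ctrb1 and 6.13 for 2210010C04Rik. These calls include the rich well, known beforehand, which held 911 of the 942 UMIs of Ctrb1 and 527 of the 544 of 2210010C04Rik. They are therefore no test of the operation. Clps was not called (adjusted p = 0.108). With the rich well left out as well, 153 of 21360 genes were called and 0 of the 9. Among the 9, 4 had an unadjusted p under 0.05, and the smallest edgeR adjusted p was 0.192 (Pnliprp1). DESeq2 was not run on these settings.

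The tomato sort was compared in insulin-only wells, with operation as a covariate and without the mixed plate, sham replicate 2. Cela1 averaged 35.2 ± 39.8 CPM on the 2 tomato-positive and 3.60 ± 3.27 CPM on the 3 tomato-negative plates (SD), and it was below the count filter, as were the other 9. Of 8856 genes 4 (0.0452%) were called. A hormone threshold at 0.25 of the class median lets insulin-only wells hold up to 2.08% Sst in place of 0.724%. With it Cela1 was tested and higher on the positive plates by 4.04 ± 0.48 (edgeR adjusted p = 3.3e-07), where 100 of 9034 genes were called. At the main threshold ppx replicate 1 and sham replicate 1 had 20 and 24 insulin-only wells, with 7 and 1 UMIs of Cela1. Whether added wells with more Sst account for the call was not tested. With the filter dropped at the main threshold Cela1 did not pass (3.49 ± 0.80, edgeR adjusted p = 0.912).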

How the data were processed

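Islet wells of 6 plates were measured by MARS-seq. The authors deposited raw UMI counts for each plate, with wells as columns and nothing normalized. Per the submitters' processing notes, HISAT 0.1.6 and genome build mm10 were used. How genes were counted, and with which annotation, is not given in the sources used here. Rows of ERCC spike-ins (3 UMIs) were left out. UMIs count molecules at the 3′ end, so CPM was not scaled by gene length.

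Wells under 500 UMIs (96) or over 20% mitochondrial UMIs (93) were left out, and no doublets were removed. Clusters came from 2000 variable genes, 20 components, 15 neighbours and Leiden clustering at resolution 1, under Python 3.11.15 with leidenalg 0.10.2 and scanpy 1.11.5. A well was high in a hormone above 3.26% (insulin), 0.724% (Sst) or 2.33% (Gcg) of its UMIs, the log2 midpoint between the class that makes it and the highest other endocrine class.

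UMIs of a class were summed per plate (at least 5 wells) and tested by edgeR's quasi-likelihood method (version 4.0.16, R 4.3.3, TMM factors, low counts removed by filterByExpr), and p-values were adjusted over all tested genes after Benjamini and Hochberg, with calls made below 0.05. DESeq2 1.42.0 was run beside it. The tests were tried on simulated counts. Intervals cover counting error. The replicate numbers were taken to pair the plates in sums over all wells, where deviations of same-numbered plates correlated at 0.50, 0.13 and 0.31. The labels give replicates 1 and 3 the same tomato status in both operations. Replicate 2 was tomato-negative on ppx and mixed on sham, and ppx replicate 2 correlated most with sham replicate 3, so this pairing is uncertain. Members and lists were chosen with earlier results of these data known. By rule the text names all members, the 5 listed acinar genes with most UMIs in the rich well, called ones and the 5 genes most like Cela1 or the other 9. Other listed genes (Amy1, Amy2b, Amy2a2, Rbpjl, Ptf1a, Bhlha15, Gatm, Tmed6 and Nr5a2), and Hhex, Mir6969 and the markers Tff2, Clu and Krt18, fall outside it and were chosen after their values were seen. A result on 1 further listed acinar gene is not reported here.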

Additional observations from a re-analysis of the deposited data

How the results depend on the processing

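The ratio of Cela1 in somatostatin-only over insulin-only wells ranged from 3.60 (10 CPM added) to 6.03 (without both tomato-positive plates) over the alternatives, and from 4.73 to 5.74 without single plates. The ratio of the other 9 genes lay between -0.77 and 1.09 without single plates. The number of wells over 5% was 0 to 1 without single plates (0 without ppx replicate 3), and the members' mean share of a plate was 0.0625% (0.00646% to 0.0747% without single plates). For Cela1 in somatostatin-only wells, adjusted p was 0.131 to 1 and the log2 fold change 0.80 to 1.03; it was below the filter without ppx replicate 1 or both tomato-positive plates. In all wells Cela1 was called with the block and with the filter dropped (edgeR adjusted p = 3.4e-24, and 0.0097 without the rich well as well). Dropping the filter lowered the SE from 0.93 to 0.21, and from 1.01 to 0.22 without the rich well. The plate sums of Cela1 were the same, so the p-values with the filter dropped understate the spread between plates.

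Counts of called genes moved more. In insulin-only wells 27 became 12 with DESeq2, 67 with no filter, 12 with the 0.25 threshold, 62 with the replicate block, 57 without both tomato-positive plates, and 12 to 49 without single plates (49, 17 and 14 without ppx replicates 1, 2 and 3 and 12 without sham replicate 3). In somatostatin-only wells 1 became 3 with no filter, 4 with the block, 8 without both tomato-positive plates, and 1 to 9 without single plates (9 without ppx replicate 2, and 2 without ppx replicate 3 or sham replicate 2). In all wells 0 became 13 with DESeq2, 182 with no filter, 185 with the block, 139 without both tomato-positive plates, and 0 to 47 without single plates (47 without ppx replicate 1, 1 without sham replicate 1); with the rich well also left out, settings added after the data were seen, it was 153 with no filter and 186 with the block. For the tomato sort 4 became 2 with DESeq2, 0 with no filter, 100 with the 0.25 threshold, and 5 to 23 without single plates (14 and 9 without ppx replicates 1 and 2, 22 and 23 without sham replicates 1 and 3). The cause was not tested. Outside all-well sums the replicate numbers did not pair the plates (correlations -0.02 to 0.09). Outside the rich well, 5 of the 6 plates held 0 to 21 UMIs of the 9 genes in kept wells.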

Other observations

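Wells left out by the filters held few enzyme UMIs. Cela1 had 15, 0 and 1 UMIs there on ppx replicates 1, 2 and 3 and 4, 0 and 0 on sham replicates 1, 2 and 3. The other 9 genes had 2, 0 and 5 UMIs on the ppx plates and 0 on each sham plate. On ppx replicate 1, where Cela1 was at 494 CPM in 28 such wells (15 UMIs), it stood at 168 CPM in the kept wells of all classes. In the somatostatin-only kept wells of that plate it stood at 342 CPM. The wells left out and the kept wells were not matched by class.

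Ctrc overlaps Cela2a on the same strand and Casp9 and the antisense gene Ctrcos on the other. Casp9 had 51 UMIs in all wells and Ctrcos 1, against 640 of Ctrc, and the counting is not stated to use strand.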
